A study of Homo sapiens with 6 samples.

Results

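Genes named ZNF followed by a number code for zinc finger proteins, and 345 of their skipped exons, in 168 genes, could be followed in breast cancer cells depleted of a spliceosome protein. An exon was taken when it lay, on the same strand, in a protein-coding GENCODE gene whose symbol is ZNF plus digits, and when it had at least 20 informative reads in the control pool and in at least 1 knockdown pool. An informative read is one that fits either only the transcript with the exon or only the transcript without it. These genes held 965 skipped exons at any depth, and the whole data set held 17934 exons with enough reads out of 40658. The rule itself uses symbols and read depth, not inclusion levels. Its depth is the sum of inclusion and exclusion reads, however, so it can depend on inclusion. The 36 exons just inside the limit, with 20 to 22 informative reads in the control pool, had a median inclusion level of 0.71, and so did the 20 left out with 17 to 19 reads. That comparison covers only exons close to the limit.

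The cells were MDA-LM2, a breast cancer line derived from MDA-MB-231 and selected for metastasis, and every group was lipid-transfected with small interfering RNA and harvested at 48 h. The groups were siCtrl, a control siRNA, with 2 libraries, siSNRPA1, directed at SNRPA1, with 3 libraries, and siSNRPB, directed at SNRPB, with 1 library. Each group was deposited as 1 pool, so that the 3 libraries against SNRPA1, for which the design names separate siRNAs, could not be told apart. No value has a replicate or an SD, and every p-value below compares the reads of 2 pools rather than the conditions. Both knockdowns were set against the same siCtrl pool, so their differences from it are not independent.

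Most ZNF proteins bind DNA through runs of C2H2 zinc fingers, small folds held by a zinc ion between a pair of cysteines and a pair of histidines. Many carry a KRAB box at the amino end, which recruits TRIM28 (KAP1) and through it SETDB1 and HP1 proteins to form heterochromatin, much of it over transposable elements. In such a gene the KRAB A box usually lies on 1 short exon, the B box on the next, and all the fingers on a long last exon, so that skipping of a short exon can take away the KRAB box and leave the fingers. SNRPA1 is the U2 A' protein of the U2 particle that recognises the branch site, and SNRPB is the Sm core protein B/B' shared by the spliceosomal U1, U2, U4 and U5 particles.

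A few lengths recurred among the ZNF exons. A single length, that of the tallest bar in the plot of exon lengths, was shared by 50 exons (14.5%), against 81 of 17589 other exons (0.461%). They are called modal-length exons here. The length of 96 nt was that of 19 exons (5.51%, against 0.955%). The next most frequent length, 84 nt, was that of 7 exons. Of the 168 genes, 82 had a KRAB A pattern and 8 a SCAN pattern in a translated coding transcript, and 7 had no C2H2 finger pattern at all, with a median of 10.0 fingers a gene and at most 33. The KRAB A pattern itself fell on 42 of the 345 exons, 36 of them of the modal length, and 10 of the 24 exons that came next after a KRAB A exon were 96 nt long. Chromosome 19, the home of large KRAB zinc finger clusters, held 157 of the exons (45.5%, against 5.35% of other exons).

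**Figure D1:**
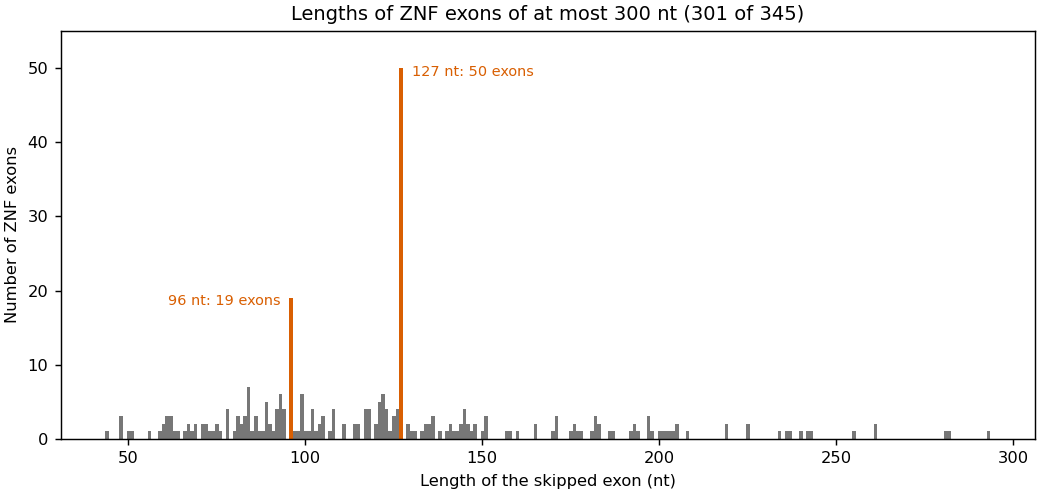
Number of ZNF exons at each length in nt, for lengths up to 300 nt, as bars of 1 nt. The tallest bar, the modal length, holds 50 exons and that at 96 nt holds 19, while no other length holds more than 7.

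The sequences below are the 6 coding exons of the modal length that passed the test in at least 1 comparison, shown because the same exon type moved in both directions. They are written 5' to 3' on the gene's strand from GENCODE 29 transcripts on hg38, and capitals mark the letters GAGTGG.
ZNF71: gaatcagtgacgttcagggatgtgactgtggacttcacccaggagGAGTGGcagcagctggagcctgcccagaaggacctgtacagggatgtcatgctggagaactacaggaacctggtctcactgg
ZNF808: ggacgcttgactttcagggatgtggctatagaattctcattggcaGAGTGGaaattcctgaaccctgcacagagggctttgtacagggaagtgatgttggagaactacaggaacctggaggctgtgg
ZNF621: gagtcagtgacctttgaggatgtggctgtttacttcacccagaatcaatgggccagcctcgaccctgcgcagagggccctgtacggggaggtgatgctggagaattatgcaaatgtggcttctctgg
ZNF440: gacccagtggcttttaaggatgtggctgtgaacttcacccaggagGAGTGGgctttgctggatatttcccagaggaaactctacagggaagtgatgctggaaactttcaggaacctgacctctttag
ZNF584: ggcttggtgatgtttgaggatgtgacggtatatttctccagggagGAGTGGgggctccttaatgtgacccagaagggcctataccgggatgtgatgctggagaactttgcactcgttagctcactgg
ZNF586: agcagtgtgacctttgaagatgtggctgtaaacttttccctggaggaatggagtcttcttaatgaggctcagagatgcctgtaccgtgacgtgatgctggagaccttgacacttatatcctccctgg
These exons lie at chr19:56613812-56613938, chr19:52547512-52547638, chr3:40529319-40529445, chr19:11830283-11830409, chr19:58409965-58410091 and chr19:57776543-57776669, all on the plus strand. In ZNF440, ZNF584, ZNF71 and ZNF808 the capitals begin at base 46 of the exon, while ZNF586 and ZNF621 do not hold those letters. The 15 pairs among the 6 exons were identical at 73 to 95 positions, with ZNF440 and ZNF71 the most alike at 74.8%. ZNF808 and ZNF621 lacked the strict KRAB A pattern. Over all exons with a sequence, GAGTGG, searched on both strands, was present in 42 of 49 modal-length ZNF exons (85.7%), and its reverse complement CCACTC in 0. Exons of that length in other genes held it in 2 of 80 (2.50%), other exons of 120 to 135 nt in 66 of 1731 (3.81%), and ZNF exons of other lengths in 41 of 270 (15.2%). In ZNF71, ZNF440 and ZNF584 these letters code for part of the KRAB A pattern, which 36 of the 50 modal-length exons held. The shares above are therefore not independent of that pattern and are no test of a motif. A match describes the letters and does not mark a binding site.

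In the control pool the ZNF exons were mostly either included in nearly all transcripts or variably used. The inclusion level is the authors' estimate of the fraction of transcripts that hold the exon, from 0 to 1. It was above 0.9 for 147 exons (42.6%), between 0.1 and 0.9 for 174 (50.4%) and below 0.1 for 24 (6.96%), with a median of 0.87. Over all 17934 exons the shares were 42.2%, 37.9% and 19.9%, with a median of 0.83, so that exons of very low inclusion made up a smaller part of the ZNF exons. No exclusion read was seen for 212 ZNF exons (61.4%) in siCtrl, for 180 of 341 (52.8%) in siSNRPA1 and for 156 of 250 (62.4%) in siSNRPB, where all exons gave 56.0%, 47.3% and 56.4%. Their read depth was low, with a median of 49 informative reads in siCtrl, 71 in siSNRPA1 and 34 in siSNRPB, against a median of 91 in siCtrl over all exons with enough reads.

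By place, 187 of the exons were coding, 35 partly coding, 44 in a 5' UTR and 1 in a 3' UTR. A further 31 belonged to transcripts marked for nonsense-mediated decay, 23 to noncoding transcripts, and 24 matched no annotated exon. Their length was a multiple of 3 in 41.4%, near the 41.7% of all exons, and their median flanking introns were 2119 nt upstream and 2844 nt downstream, against 2169 and 2019 nt. Of the 345 exons, 113 overlapped another exon of the set from the same gene, as alternative starts or ends, and such forms share reads. Of all 345, 42 also lay within another coding gene and 45 overlapped a gene on the other strand. Their reads are uncertain since no source used here states whether counting respected strand, and KRAB zinc finger genes have close copies among which reads can be split.

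The pools held 5707839 informative reads for siCtrl, 7831446 for siSNRPA1 and 3396043 for siSNRPB over the whole data set. SNRPA1 events had 2196, 599 and 3116 reads in siCtrl, siSNRPA1 and siSNRPB and the SNRPB event 4584, 9222 and 351, so that each target was lowest in the pool labelled for its knockdown. Of the mesenchymal markers for this line CD44 had 40590 to 93980 reads, FN1 3707 to 10893, AXL 892 to 2815 and SPARC only 26 to 99, while VIM and CAV1 had no event. Of the luminal markers KRT8 had 9976 to 22025 reads, GATA3 200 to 606, ESR1 12 to 51, ESRP1 8 to 21 and CDH1 at most 20, and EPCAM and KRT18 had no event. The blood markers PTPRC and CD3E had at most 77 and 7 reads.

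In the siSNRPA1 pool ZNF exons had moved in both directions. Of the 116 exons of 69 genes that could be tested, 19 had lower inclusion in siSNRPA1 than in siCtrl (fell) and 12 had higher inclusion (rose). Large falls were those of ZNF160, ZNF2, ZNF426 and ZNF808, and large rises those of ZNF778, ZNF586 and ZNF678. KRAB A exons of ZNF584 and ZNF586 rose while that of ZNF71 fell.

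Testing required 20 or more informative reads in both pools of a pair, and, summed over the pair, 5 or more for inclusion as well as 5 or more for exclusion. Fisher's exact test, two-sided, was run on those counts, followed by Benjamini-Hochberg adjustment over every exon tested in the data set, and its result is written below as the adjusted exact p. To pass, an exon needed an adjusted exact p below 0.05 and inclusion levels 0.1 or more apart, with the read shares differing the same way. Of the 345 exons, 4 had too few reads in siSNRPA1, 213 had fewer than 5 exclusion reads and 12 fewer than 5 inclusion reads. Among the 116 tested, 26.7% passed, against 17.0% of all 6459 tested exons. The falls made up 16.4%, against 12.8% of all, and the rises 10.3%, against 4.18%. The median difference was -0.060, against -0.020, and inclusion was lower in siSNRPA1 for 80 exons, higher for 34 and equal for 2. With reads thinned to the smallest pool the ZNF share was below that of all exons, at 4 of 46 (8.70%) against 10.5%, and with read counts divided by 2 at 3 of 48 (6.25%) against 8.11%. In the other settings it was above, as with a minimum of 50 reads (25.9% against 16.0%) and with 1 exon per gene (27.1% against 18.3%). The split into falls and rises varied with the setting. The authors' Bayes factor, a ratio of evidence for and against a change, gave 21 falls and 5 rises among 116 at a limit of 10. A minimum of 50 reads gave 11 and 4 among 58, and a minimum of 10 reads 30 and 22 among 169. Read share gave 24 and 11 among 116. The excess of rises thus depends on the test used. The differences in share were not tested.

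**Figure D2:**
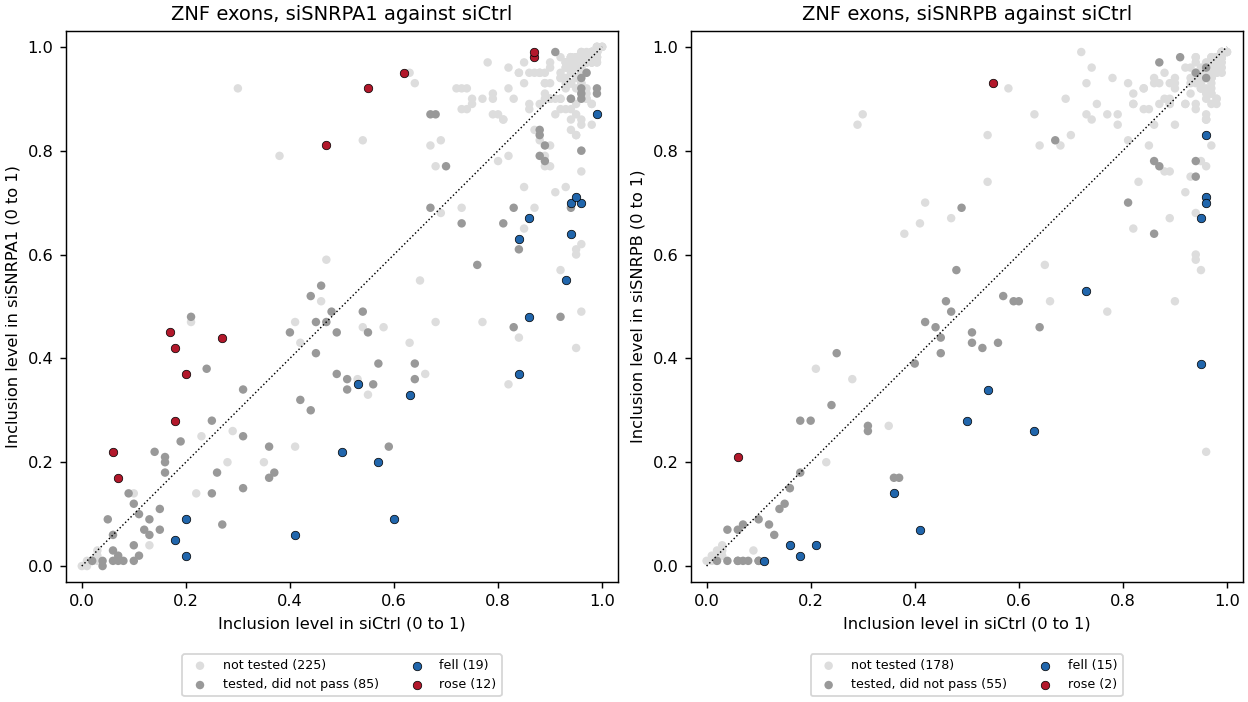
Inclusion level of each ZNF exon in siCtrl (horizontal, 0 to 1) against that in siSNRPA1 (left) or siSNRPB (right), where each point is 1 exon, dark grey points were tested and did not pass, light grey points were not tested, and the dotted line marks equal levels. In siSNRPA1 the 19 falls and 12 rises lie on both sides of the line, while in siSNRPB 15 of the 17 passing exons lie below it.

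Among the KRAB genes, falls reached exons at several places of the transcript. ZNF160, with 20 finger patterns, had an exon of 125 nt at chr19:53090541-53090665 that matches no annotated exon, with an inclusion level of 0.60 in siCtrl, 0.09 in siSNRPA1 and 0.51 in siSNRPB. Its reads for inclusion numbered 19 of 23 in siCtrl, 11 of 42 in siSNRPA1 and 16 of 21 in siSNRPB, and the difference of -0.51 had an adjusted exact p of 2.69e-04. A separate 5' UTR exon of ZNF160, 141 nt long and at chr19:53091413-53091553, had the same numbers of exclusion reads and passed with an adjusted exact p of 0.0416. It was at 0.57, 0.20 and 0.52, so that siSNRPA1 was the low pool for both exons, which are not separate observations. A 117-nt form of the 5' UTR exon, also with those exclusion reads, was at 0.59, 0.23 and 0.51 and did not pass (adjusted exact p = 0.0611). The 141-nt call was lost without the minimum of inclusion and exclusion reads (adjusted exact p = 0.114).

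ZNF2 had a partly coding exon of 72 nt, at chr2:95176188-95176259, at 0.84 in siCtrl, 0.37 in siSNRPA1 and 0.48 in siSNRPB. Its siCtrl reads were 37 for inclusion and 5 for exclusion and its siSNRPA1 reads 9 and 11 (adjusted exact p = 0.00411). The 14 informative reads in siSNRPB were too few for a test. ZNF267 had an exon of 151 nt, found in a transcript marked for nonsense-mediated decay, at 0.41, 0.06 and 0.07, and the siSNRPA1 fall had an adjusted exact p of 7.35e-04. Both knockdown pools were low, with 3 and 4 inclusion reads against 14 in siCtrl. A 62-nt 5' UTR exon of ZNF266 was at 0.84, 0.63 and 0.92, and it fell in siSNRPA1 with an adjusted exact p of 0.0343 from 20 inclusion and 0 exclusion reads in siCtrl to 52 and 18.

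ZNF426 and ZNF778, both KRAB zinc finger genes, have a coding exon of 92 nt that was alike in sequence and moved in opposite directions. This pair was noticed after the values were seen. The exons lie at chr19:9535188-9535279 on the minus strand and chr16:89222092-89222183 on the plus strand, and they were identical at 72 of 92 positions (78.3%).
ZNF426: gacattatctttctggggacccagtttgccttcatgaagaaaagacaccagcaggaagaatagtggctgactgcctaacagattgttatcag
ZNF778: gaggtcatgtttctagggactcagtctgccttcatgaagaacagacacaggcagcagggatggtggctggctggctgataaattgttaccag
The ZNF426 exon was at 0.93 in siCtrl, 0.55 in siSNRPA1 and 0.71 in siSNRPB. Its reads were 41 for inclusion and 0 for exclusion in siCtrl and 40 and 17 in siSNRPA1, with an adjusted exact p of 6.33e-04, and only 7 informative reads were left in siSNRPB. The ZNF778 exon was at 0.55, 0.92 and 0.93. Its reads were 15 and 7 in siCtrl, 24 and 0 in siSNRPA1 and 26 and 0 in siSNRPB, and the rises had adjusted exact p-values of 0.0152 and 0.00942. The control pool was the high one for ZNF426 and the low one for ZNF778. With 22 to 26 informative reads a pool, the 95% Wilson interval of the ZNF778 read share in siCtrl ran from 47.3% to 83.6%.

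Of the modal-length exons 5 of the 10 tested in siSNRPA1 passed, with 3 falls and 2 rises, and 40 of the 50 could not be tested. Exons of that length in other genes gave 5 falls and 1 rise among 35, and 17.0% of all tested exons passed. ZNF808, a gene needed for pancreas development in humans, was at 0.86, 0.48 and 0.64. Its reads for inclusion numbered 67 of 72 in siCtrl, 53 of 69 in siSNRPA1 and 29 of 29 in siSNRPB, and it fell in siSNRPA1 with an adjusted exact p of 0.0320. ZNF621 was at 0.94, 0.64 and 0.86, with 54 and 0 reads in siCtrl and 61 and 13 in siSNRPA1 (adjusted exact p = 0.00436). For both genes the siSNRPA1 pool was the lowest. In siSNRPB the ZNF808 level was below that of siCtrl although its read share was not. By read share the siSNRPA1 difference of ZNF808 was -0.16. That call was lost with read counts divided by 2, with thinned reads and without the minimum of inclusion and exclusion reads. The ZNF621 call was lost with read counts divided by 2.

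The ZNF71 KRAB A exon was already rarely used in siCtrl, at 0.18, and was at 0.05 in siSNRPA1 and 0.02 in siSNRPB. Its inclusion reads numbered 17 of 87 in siCtrl, 5 of 103 in siSNRPA1 and 0 of 56 in siSNRPB, where a count of 0 allows a share of up to 5.36%. The falls had adjusted exact p-values of 0.0125 and 8.94e-04. By inclusion level, most ZNF71 transcripts lacked the exon in all 3 pools.

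The KRAB A exon of ZNF584 went the other way, at 0.18 in siCtrl, 0.42 in siSNRPA1 and 0.28 in siSNRPB. Its inclusion reads were 24 of 64, 63 of 96 and 16 of 33, and the rise in siSNRPA1 had an adjusted exact p of 0.00445. A form of 151 nt with the same exon end, and the same exclusion reads, was at 0.20, 0.37 and 0.28 (adjusted exact p = 0.0260). The KRAB A exon of ZNF586 was at 0.47, 0.81 and 0.47, with reads for inclusion of 19 of 29 in siCtrl and 22 of 22 in siSNRPA1 (adjusted exact p = 0.0137). The siSNRPA1 pool was the highest for both genes.

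Of the 8 tested exons of any length with the strict KRAB A pattern, 3 rose and 1 fell in siSNRPA1. ZNF584 gave 2 of the rises through its overlapping forms. Over all tested exons 4.18% rose and 12.8% fell. The strict pattern leaves out some modal-length exons. Of the 3 such exons tested, 2 fell, those of ZNF808 and ZNF621, and 0 rose. Among the 8 with the pattern the other 4 did not pass. They were those of ZNF28 (0.67 in siCtrl and 0.69 in siSNRPA1), ZNF595 (0.68 and 0.87), ZNF772 (0.83 and 0.46) and ZNF778 (0.49 and 0.37). The 3 tested exons of 96 nt did not pass either. The exon of ZNF506 was at 0.96 and 0.80, that of ZNF664 at 0.45 and 0.47, and that of ZNF185 at 0.16 and 0.18. Of the 5 tested exons next after a KRAB A exon 1 rose, a coding exon of 107 nt in ZNF562, at 0.87 in siCtrl, 0.98 in siSNRPA1 and 0.97 in siSNRPB (adjusted exact p = 0.00670).

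**Figure D3:**
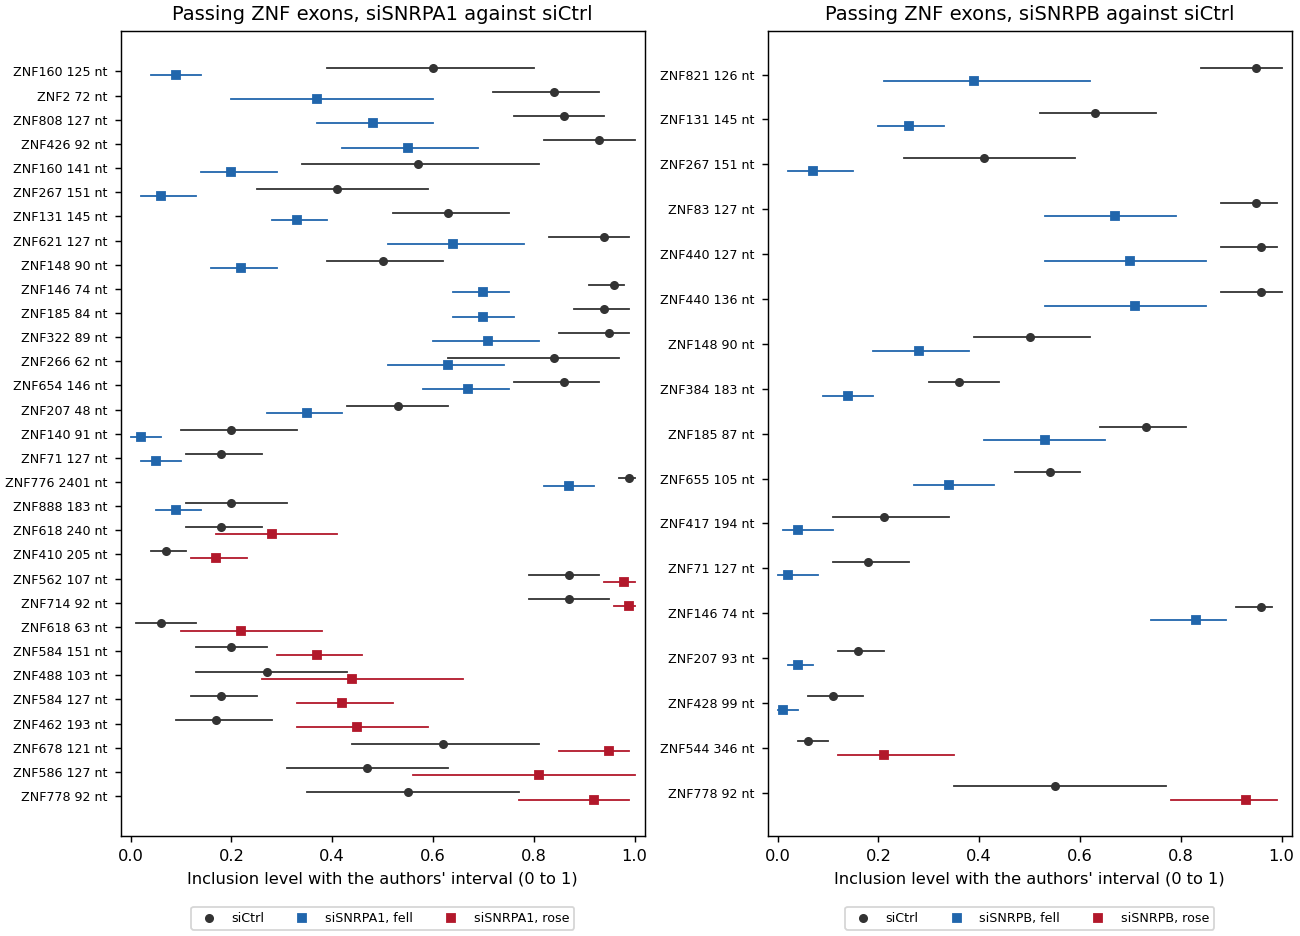
Inclusion level (0 to 1) of each ZNF exon that passed against siCtrl, in siSNRPA1 (left, 31 exons) and siSNRPB (right, 17 exons), 1 row an exon named by gene and length. Circles are siCtrl and squares the knockdown, blue for falls and red for rises, with the authors' interval as a line, and the widest falls are those of ZNF160 on the left and ZNF821 on the right.

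Zinc finger genes without a KRAB pattern had 9 falls and 6 rises among 64 tested exons in siSNRPA1 (14.1% and 9.38%). Genes with the pattern had 10 falls and 6 rises among 52 (19.2% and 11.5%), where all tested exons gave 12.8% and 4.18%. The pattern is strict, so genes without it can still hold a KRAB box. ZNF148, which codes for a protein (ZBP-89) that binds GC-rich promoters, had a 5' UTR exon of 90 nt at 0.50, 0.22 and 0.28 in siCtrl, siSNRPA1 and siSNRPB. Its inclusion reads were 61 of 75, 42 of 96 and 26 of 48, and it fell with adjusted exact p-values of 1.76e-05 and 0.00861. Both knockdown pools were below the control pool.

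ZNF146 (OZF), whose protein consists almost only of fingers, had a 5' UTR exon of 74 nt at 0.96, 0.70 and 0.83. Its exclusion reads were 5 of 154 in siCtrl, 56 of 224 in siSNRPA1 and 11 of 84 in siSNRPB, and the falls had adjusted exact p-values of 7.70e-08 and 0.0201. The exon overlaps ZNF565 on the other strand. ZNF322 had an 89-nt 5' UTR exon at 0.95, 0.71 and 0.92, with 14 of 93 exclusion reads in siSNRPA1 and none in the other pools (adjusted exact p = 0.00639). These 5' UTR exons lie before the coding sequence, and of 17 such exons tested 5 fell and 1 rose, against 97 and 30 of 814 other 5' UTR exons.

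ZNF185 codes for a LIM domain protein of the actin cytoskeleton and had no C2H2 finger pattern, so that its exons are in the set by name only. Its coding exon of 84 nt lies at chrX:152920328-152920411 and is shown because siSNRPA1 differed from both other pools.
ZNF185: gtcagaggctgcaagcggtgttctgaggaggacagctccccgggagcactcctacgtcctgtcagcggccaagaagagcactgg
It was at 0.94 in siCtrl, 0.70 in siSNRPA1 and 0.98 in siSNRPB. Exclusion reads were 4 of 336, 49 of 381 and 0 of 165, and the fall in siSNRPA1 had an adjusted exact p of 1.32e-08. The 95% Wilson intervals of the inclusion read share were 97.0% to 99.5% in siCtrl and 83.4% to 90.1% in siSNRPA1, which do not overlap.

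ZNF131, a zinc finger protein with a BTB/POZ domain, had a coding exon of 145 nt at chr5:43139165-43139309. Its length is not a multiple of 3, so skipping shifts the reading frame.
ZNF131: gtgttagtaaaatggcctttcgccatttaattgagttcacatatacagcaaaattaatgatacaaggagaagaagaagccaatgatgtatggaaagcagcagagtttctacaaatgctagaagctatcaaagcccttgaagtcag
It was at 0.63, 0.33 and 0.26, with 143, 135 and 57 inclusion reads and 0, 10 and 7 exclusion reads. The falls had adjusted exact p-values of 0.00947 in siSNRPA1 and 0.00141 in siSNRPB. In siCtrl the level of 0.63 stood beside an inclusion read share of 100%. The level also draws on reads that fit both transcripts. By read share the siSNRPA1 difference was too small to pass.

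The other rises in siSNRPA1 were in exons of several kinds. A partly coding 121-nt exon of ZNF678 was at 0.62, 0.95 and 0.85, with 6 of 22 exclusion reads in siCtrl and 0 of 35 in siSNRPA1 (adjusted exact p = 0.0110). A 193-nt exon of ZNF462, a gene tied to neurodevelopmental disorder, was at 0.17, 0.45 and 0.07 (adjusted exact p = 0.0273), and a 103-nt exon of ZNF488 at 0.27 and 0.44 in siCtrl and siSNRPA1 (adjusted exact p = 0.00363). Both lie outside annotated coding exons. A 63-nt coding exon of ZNF618, whose protein binds UHRF2, was at 0.06, 0.22 and 0.07 (adjusted exact p = 0.0123), and a 240-nt form that shares its exclusion reads was at 0.18, 0.28 and 0.18. A 92-nt 5' UTR exon of ZNF714 was at 0.87, 0.99 and 0.77 (adjusted exact p = 0.0171). A 205-nt exon of ZNF410, an activator of CHD4 transcription, was at 0.07, 0.17 and 0.08 (adjusted exact p = 3.26e-05) and overlaps a gene on the other strand. For ZNF618 and ZNF410 siCtrl and siSNRPB were within 0.01 of each other and siSNRPA1 alone was high.

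The falls in siSNRPA1 not yet described were those of ZNF140, ZNF207, ZNF654, ZNF776 and ZNF888, with differences from -0.11 to -0.19. With the authors' Bayes factor of at least 10 in place of the exact test, 12 of the 31 calls were lost, those of ZNF71, ZNF207, ZNF266, ZNF410, ZNF488, ZNF562, ZNF586, ZNF618 (both forms), ZNF714, ZNF778 and ZNF888. With read share in place of the inclusion level, ZNF131, ZNF562, ZNF714 and ZNF776 were lost.

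In the siSNRPB pool nearly every ZNF exon that passed had lower inclusion than in siCtrl. Of 72 exons of 40 genes tested, 15 fell and 2 rose. The falls included coding exons of ZNF821, ZNF131, ZNF440, ZNF384, ZNF655 and ZNF207, and the rises were those of ZNF778 and ZNF544. The exons that passed made up 23.6%, against 21.3% of all 4244 tested exons. The falls were 20.8%, against 16.7% of all, and the rises 2.78%, against 4.62%, so that the ZNF share that passed lay near that of all exons. The median difference was -0.050, against -0.010. Of the 345 exons 95 had too few reads in siSNRPB, 167 had too few exclusion reads and 11 too few inclusion reads.

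ZNF821 showed the widest fall. Its coding exon of 126 nt, a multiple of 3, lies at chr16:71867912-71868037 on the minus strand and overlaps ATXN1L and IST1 on the other strand.
ZNF821: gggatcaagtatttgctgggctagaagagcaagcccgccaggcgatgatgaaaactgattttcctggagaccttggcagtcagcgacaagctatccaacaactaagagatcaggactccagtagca
It was at 0.95 in siCtrl, 0.42 in siSNRPA1 and 0.39 in siSNRPB. Its reads were 38 for inclusion and 0 for exclusion in siCtrl, 18 and 3 in siSNRPA1 and 14 and 7 in siSNRPB, and the fall in siSNRPB had an adjusted exact p of 0.00208. The siSNRPA1 difference could not be tested because only 3 exclusion reads were seen over both pools.

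The KRAB A exon of ZNF440 was at 0.96, 0.93 and 0.70 as the modal-length form and at 0.96, 0.93 and 0.71 as a form 136 nt long. Both share the 6 exclusion reads of siSNRPB, against 0 in siCtrl and 2 in siSNRPA1, and they passed with adjusted exact p-values of 0.00942 and 0.00843. The modal-length 5' UTR exon of ZNF83 was at 0.95, 0.83 and 0.67, with 0 of 133, 2 of 120 and 7 of 74 exclusion reads (adjusted exact p = 0.00335). By read share its difference was too small to pass. With ZNF71 these made up 3 falls and 0 rises among 6 tested exons of the modal length, where such exons of other genes gave 5 falls and 0 rises among 17.

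ZNF384 (CIZ) codes for a C2H2 factor known from fusion genes in acute leukemia, and its 183-nt exon, a multiple of 3, is shown for its fall in siSNRPB. The exon lies at chr12:6672350-6672532 on the minus strand.
ZNF384: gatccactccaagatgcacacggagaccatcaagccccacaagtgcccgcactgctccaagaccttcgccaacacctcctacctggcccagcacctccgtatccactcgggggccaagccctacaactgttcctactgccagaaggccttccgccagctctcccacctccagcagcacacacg
It was at 0.36, 0.23 and 0.14 in siCtrl, siSNRPA1 and siSNRPB. Inclusion reads were 122 of 143, 136 of 156 and 35 of 66, which are shares of 85.3%, 87.2% and 53.0%. The siSNRPB pool was low on both scales (adjusted exact p = 2.63e-05), whereas in siSNRPA1 the level was lower than in siCtrl and the read share was not, and that difference did not pass (adjusted exact p = 0.849).

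ZNF655 (VIK), whose protein binds the signalling protein VAV1, had a 105-nt coding exon at chr7:99571688-99571792, deeper than most here with 233, 251 and 135 informative reads.
ZNF655: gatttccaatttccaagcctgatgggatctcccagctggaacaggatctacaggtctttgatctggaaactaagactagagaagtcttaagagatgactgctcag
It was at 0.54, 0.49 and 0.34, and its inclusion read shares were 59.7%, 54.6% and 38.5% with 95% Wilson intervals of 53.3% to 65.7%, 48.4% to 60.6% and 30.7% to 46.9%. The siSNRPB interval lay below the other pools' intervals, and the fall had an adjusted exact p of 7.54e-04.

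ZNF207 (BuGZ), a spindle and kinetochore protein that binds BUB3, had a pair of coding cassette exons, 1 of which passed in each knockdown. The exon of 48 nt lies at chr17:32361468-32361515 and that of 93 nt at chr17:32366665-32366757, both on the plus strand and both multiples of 3.
ZNF207 48 nt: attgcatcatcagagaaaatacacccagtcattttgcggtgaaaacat
ZNF207 93 nt: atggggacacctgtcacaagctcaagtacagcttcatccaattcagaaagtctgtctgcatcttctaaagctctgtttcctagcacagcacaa
The 48-nt exon was at 0.53, 0.35 and 0.42, with inclusion reads of 77 of 103, 70 of 123 and 44 of 72. It fell in siSNRPA1 (adjusted exact p = 0.0221) and did not pass in siSNRPB (adjusted exact p = 0.134), and the direct comparison of the knockdowns did not pass either (adjusted exact p = 0.778). The 93-nt exon was at 0.16, 0.20 and 0.04, with inclusion reads of 59 of 70, 113 of 131 and 14 of 52. It fell in siSNRPB (adjusted exact p = 8.44e-09), where its read share was 26.9%, against 84.3% in siCtrl and 86.3% in siSNRPA1.

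The siSNRPB calls not yet described were those of ZNF185, ZNF417, ZNF428 and ZNF544. An 87-nt coding exon of ZNF185 was at 0.73, 0.66 and 0.53 (adjusted exact p = 0.0477), and a 194-nt 5' UTR exon of ZNF417 at 0.21, 0.48 and 0.04 (adjusted exact p = 0.00242). ZNF417 has a near-identical copy, so its reads are uncertain. A 99-nt exon of ZNF428, which overlaps SRRM5 on the other strand, was at 0.11, 0.02 and 0.01 (adjusted exact p = 0.0121). The rise besides that of ZNF778 was that of a 346-nt exon of ZNF544 that matches no annotated exon, at 0.06, 0.06 and 0.21 (adjusted exact p = 0.0465). With a Bayes factor of at least 10 the siSNRPB calls of ZNF146, ZNF185, ZNF417, ZNF544 and ZNF778 were lost.

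Of the 345 exons, 42 in 36 genes passed in at least 1 knockdown against siCtrl, and 64 were tested in both. The 5 that fell in both were those of ZNF267, ZNF146, ZNF71, ZNF148 and ZNF131 described above, the ZNF778 exon rose in both, and 0 passed in opposite directions. Because the control pool is shared, any deviation of siCtrl enters both differences, and these 6 are given side by side without a test of their overlap. The same overlap over all tested exons is not given here, so these counts do not set ZNF exons apart from other exons. Of the 6, only ZNF267 kept both calls under every alternative in which it was tested. By read share ZNF131 lost its siSNRPA1 call and ZNF146 its siSNRPB call. With a Bayes factor of at least 10, ZNF71 lost its siSNRPA1 call, ZNF146 its siSNRPB call and ZNF778 both. ZNF148 lost its calls only at reduced depth.

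By place in the gene, 9 of 50 tested coding exons fell and 7 rose in siSNRPA1, which is 18.0% and 14.0%, where other coding exons gave 16.6% and 4.30%. In siSNRPB 10 of 35 coding exons fell and 1 rose, which is 28.6% and 2.86%, where other coding exons gave 21.4% and 5.12%. Exons of transcripts marked for nonsense-mediated decay gave 1 fall and 1 rise among 18 in siSNRPA1 and 1 fall among 10 in siSNRPB. Other exons of that kind gave 6.99% falls and 3.76% rises in siSNRPA1 and 8.06% and 3.47% in siSNRPB. On chromosome 19, 9 of 49 tested exons fell (18.4%) and 5 rose (10.2%) in siSNRPA1, where other exons gave 8.28% and 1.59%. On the other chromosomes 10 of 67 fell (14.9%) and 7 rose (10.4%), where other exons gave 13.0% and 4.20%. Exons whose length was a multiple of 3 gave 6 falls and 2 rises among 41 in siSNRPA1 (14.6% and 4.88%). Such exons outside the set gave 13.8% and 4.17%. Lengths that were no multiple of 3 gave 13 and 10 among 75 (17.3% and 13.3%), against 11.9% and 3.99% outside the set. These classes overlap and their differences were not tested.

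Set directly against each other, the knockdown pools differed in 13 of 82 tested ZNF exons in 47 genes, with 9 higher in siSNRPA1 than in siSNRPB and 4 lower. This comparison does not use the control pool. The 13 made up 15.9%, against 14.7% of all 5082 tested exons, with 11.0% higher against 8.28% of all and 4.88% lower against 6.38%. The median difference was 0.000, as over all exons. Of the 345 exons 99 had too few reads, 149 too few exclusion reads and 15 too few inclusion reads.

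**Figure D4:**
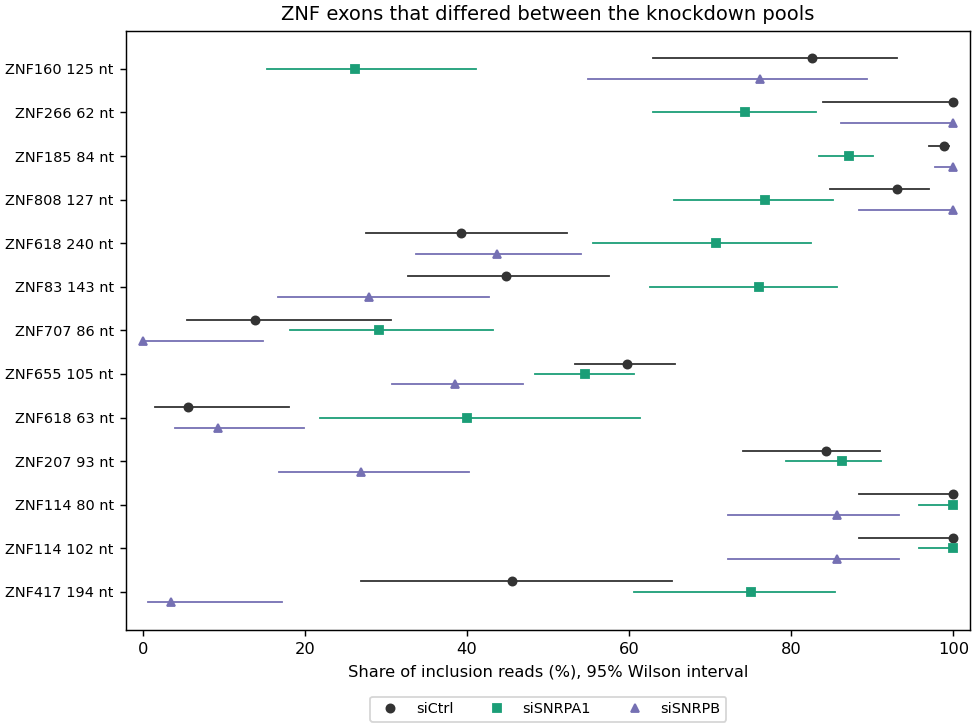
Share of inclusion reads (%) in siCtrl (circles), siSNRPA1 (squares) and siSNRPB (triangles) for the 13 ZNF exons that passed the direct comparison of the knockdown pools, 1 row an exon, with 95% Wilson intervals as lines. The siSNRPB share of the 93-nt ZNF207 exon, 26.9%, lies apart from 84.3% in siCtrl and 86.3% in siSNRPA1, and the siSNRPA1 share of the ZNF160 exon, 26.2%, lies below 76.2% in siSNRPB.

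The widest difference was that of the ZNF417 exon, at 0.48 in siSNRPA1 and 0.04 in siSNRPB, with 33 of 44 and 1 of 29 inclusion reads (adjusted exact p = 3.23e-08). The siCtrl pool, at 0.21, lay between them. The 93-nt exon of ZNF207 had the smallest p, with a difference of 0.16 and an adjusted exact p of 6.24e-12, and the 105-nt exon of ZNF655 differed by 0.15 (adjusted exact p = 0.0150). In both of these genes siSNRPA1 lay near siCtrl and siSNRPB below it. The 5' UTR exon of ZNF114, a KRAB gene, was at 0.98 in siSNRPA1 and 0.75 in siSNRPB as a form of 102 nt, from 0 of 85 and 6 of 42 exclusion reads (adjusted exact p = 0.00683).

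Lower in siSNRPA1 than in siSNRPB were the exons of ZNF160 (0.09 against 0.51, adjusted exact p = 0.00272), ZNF266 (0.63 against 0.92, adjusted exact p = 0.0232), ZNF185 of 84 nt (0.70 against 0.98, adjusted exact p = 6.83e-07) and ZNF808 (0.48 against 0.64, adjusted exact p = 0.0135). For ZNF160, ZNF266 and ZNF185 the siSNRPB level was within 0.1 of that in siCtrl, and each of the 4 also fell in siSNRPA1 against siCtrl. The ZNF384 exon had an adjusted exact p of 5.71e-06 but a difference of 0.09, just under the limit.

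No exclusion read was seen for the 6 deepest ZNF exons that passed in no comparison, taken 1 per gene. The 2184-nt exon of ZNF106 had 2743, 3653 and 2335 inclusion reads in siCtrl, siSNRPA1 and siSNRPB and 0 exclusion reads, with levels of 0.99, 1.00 and 0.99, and a count of 0 in siCtrl allows a share of exclusion reads of up to 0.109%. The 1225-nt exon of ZNF638 had 1564, 2513 and 966 inclusion reads at 0.98, 0.99 and 0.97, and the 157-nt exon of ZNF598, which codes for a ligase that marks collided ribosomes, had 727, 912 and 288 at 1.00, 1.00 and 0.99. With 0 exclusion reads in all 3 pools these exons stayed outside the test. A 198-nt exon of ZNF185 and a 2079-nt exon of ZNF714 likewise had 0 exclusion reads, with levels from 0.94 to 1.00. The 683-nt exon of ZNF131 had 764, 1133 and 622 inclusion reads and 0 exclusion reads, yet its level was 0.72, 0.92 and 0.99. For this exon the level varied where the read share was 100% throughout. The authors' Bayes factor against siCtrl was 6.58 in siSNRPA1 and 1000000000000 in siSNRPB. Their siSNRPB comparison thus favoured a higher level for an exon that the exact test could not address.

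Exons of related genes were counted beside these. C2H2 families with other names (such as ZBTB, PRDM, KLF and ZSCAN) had 40 tested exons in siSNRPA1, of which 4 fell and 2 rose with a median difference of -0.040, and 22 in siSNRPB, of which 1 fell and 2 rose. These counts lie near or below the shares of all tested exons that passed, 17.0% in siSNRPA1 and 21.3% in siSNRPB. In siSNRPA1 the falls included 5' UTR exons of PRDM8 (0.80 in siCtrl and 0.29 in siSNRPA1, adjusted exact p = 8.93e-06), ZFX (0.82 and 0.43, adjusted exact p = 0.0324) and ZBTB25 (0.63 and 0.35, adjusted exact p = 0.0220). In siSNRPB an exon of ZBTB8A fell from 0.52 to 0.32, and exons of ZBTB33 and MAZ rose, from 0.48 to 0.68 and from 0.44 to 0.60.

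Partners of KRAB zinc finger proteins in heterochromatin had 8 falls and 2 rises among 29 tested exons in siSNRPA1 and 3 falls and 2 rises among 21 in siSNRPB, where 17.0% and 21.3% of all tested exons passed. The siSNRPB count lies near that share. CHD3, a remodelling subunit that binds TRIM28, had a 102-nt exon at 0.50, 0.18 and 0.24, which fell in both (adjusted exact p = 1.24e-07 and 0.0120). TRIM33, a relative of TRIM28, had a 51-nt exon at 0.66, 0.44 and 0.95, which fell in siSNRPA1 (adjusted exact p = 0.0280) and rose in siSNRPB (adjusted exact p = 5.81e-04). The direct comparison of the knockdowns had an adjusted exact p of 6.68e-09 for that exon. A 51-nt exon of MTA1, a subunit of the NuRD complex, was at 0.88, 0.67 and 0.97 and fell in siSNRPA1 (adjusted exact p = 0.0475). A 57-nt exon of PPHLN1, of the HUSH silencing complex, was at 0.64, 0.75 and 0.96 and rose in siSNRPB (adjusted exact p = 1.13e-04). ATF7IP, the partner of SETDB1, had an exon of 1565 nt at 0.96, 0.94 and 0.74, where siSNRPB was lower than siSNRPA1 (adjusted exact p = 6.21e-13).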

How the data were processed

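RNA sequencing of 6 libraries in 3 groups (2 siCtrl, 3 siSNRPA1, 1 siSNRPB) was deposited as 1 summary of skipped-exon events per group, whose column names are those of MISO. MISO's version, its settings and the way libraries were pooled were not given in the sources used here. STAR 2.7 and hg38 appear in the submitters' processing notes without a stated role. Per the file headers, each event has an inclusion level, a fraction from 0 to 1 that the authors estimated, with an interval of unstated width, and the read counts of each class as text. The authors also deposited, for each knockdown against siCtrl, a signed score, the inclusion level of the knockdown minus that of siCtrl, and a Bayes factor, which is a ratio that weighs evidence for a change against evidence for no change. Columns of per-sample values left unused numbered 0.

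Each skipped exon was represented by its deepest event. The commonest length of ZNF exons, called the modal length, was 127 nt. Symbols, places and sequences came from GENCODE 29. KRAB A, SCAN and C2H2 finger patterns were searched in translated coding transcripts. Shares of reads have 95% Wilson intervals. A count of 0 allows 3 counts of the total. Reads are not independent molecules, so intervals and tests cover counting error only, and the median ZNF exon had 34 to 71 informative reads a pool. Python 3.11.15, numpy 2.4.6, scipy 1.17.1, pandas 2.3.3, biopython 1.88 and matplotlib 3.10.9 were used. The test was also run on simulated independent reads, with the inclusion level set equal to the read share. That run does not cover levels that differ from the read share, nor reads that are not independent.

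Named exons were, for each knockdown against siCtrl, up to 12 largest falls and 12 largest rises that passed, 1 per gene, and 5 each way between the knockdowns. To these came every exon that passed in both knockdowns, the 6 deepest that passed nowhere, up to 4 passing exons of 127 or 96 nt and, of the other lists, up to 3 passing exons each. Other exons named were chosen after their values were seen, among them the tested exons of 127 and 96 nt. The members and lists were chosen with earlier results of these data known. Alternatives changed the read minimum, the size of difference, the scale of inclusion, the depth, the test and the choice of events.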

Additional observations from a re-analysis of the deposited data

Results flagged for a closer look

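The exons below are listed because the knockdown pools differed by a direct test of their reads (Fisher's exact test with Benjamini-Hochberg adjustment over all tested exons), each value being the inclusion level in siSNRPA1 minus that in siSNRPB. Lower in siSNRPA1 were the 125-nt exon of ZNF160 by a difference of -0.42, the 62-nt exon of ZNF266 (-0.29), the 84-nt exon of ZNF185 (-0.28) and the modal-length exon of ZNF808 (-0.16). Higher in siSNRPA1 were the 194-nt exon of ZNF417 (0.44), the 102-nt and 80-nt forms of a ZNF114 exon (0.23 and 0.20) and the 93-nt exon of ZNF207 (0.16). The 105-nt exon of ZNF655 and the 63-nt exon of ZNF618 each differed by 0.15, the 86-nt exon of ZNF707 and the 143-nt exon of ZNF83 each by 0.11, and the 240-nt form of ZNF618 by 0.10. ZNF707 had 14 of 48 inclusion reads in siSNRPA1 and 0 of 22 in siSNRPB, where a count of 0 allows a share of up to 13.6% (adjusted exact p = 0.0165). For ZNF83, which matches no annotated exon, the reads were 38 of 50 and 12 of 43 (adjusted exact p = 8.44e-05). The paired forms of ZNF114 and of ZNF618 share exclusion reads and are not separate observations.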

How the results depend on the processing

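No paired analysis was possible because each group was deposited as 1 pool, and for the same reason no replicate could be left out. The number of ZNF exons that passed was 31 in siSNRPA1 against siCtrl, 17 in siSNRPB against siCtrl and 13 between the knockdowns. With a minimum of 10 informative reads these became 52, 32 and 22, with a minimum of 50 reads 15, 8 and 3, and with a difference of at least 0.2 they became 18, 11 and 6. With read counts divided by 2 they were 3, 3 and 3, with all pools thinned to the depth of siSNRPB 4, 9 and 5, and with 1 exon per gene 13, 9 and 5. Inclusion as the share of inclusion reads gave 35, 20 and 16, all events 31, 19 and 14, and no minimum of inclusion and exclusion reads 23, 14 and 12. The authors' Bayes factor of at least 10, which covers only the comparisons with siCtrl, gave 26 and 13. It was applied only to exons that met the read limits of the exact test. Of these 26 and 13, 19 and 12 were also calls by the exact test. A pair of alternatives was chosen after seeing the data: symbols with a letter after the digits gave 34, 18 and 13, and leaving out exons with a gene on the opposite strand gave 28, 14 and 13. These settings could not show a reversed direction. All but the read share setting kept the same difference in inclusion level. A passing exon already needed a read share that differed the same way. With read counts divided by 2, 12 of the 15 siSNRPA1 calls still tested were lost, and with thinned reads 7 of 11. In siSNRPA1 against siCtrl 213 of the 345 exons stayed untested for too few exclusion reads and 4 for too few informative reads, and in siSNRPB against siCtrl 167 and 95.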
